A study of Mus musculus with 2 samples.

Results

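The DNA around 10 genes of the transforming growth factor beta (TGF-beta) and bone morphogenetic protein (BMP) pathways was examined for accessible chromatin in mouse urinary bladder. The genes were the ligand genes Tgfb1, Tgfb2, Tgfb3, Bmp2, Bmp4 and Bmp7, the receptor genes Tgfbr1 and Tgfbr2, and the intracellular Smad3 and Smad7. They were chosen by name, and are 10 of the 21829 protein-coding genes of the GENCODE M21 annotation on the chromosomes used. Each locus was taken as the gene from its first to its last annotated base plus 10 kb on both sides. The longer deposited peak lists held 94 peaks in these loci in replicate 1 and 114 in replicate 2, of 84591 and 112174 peaks in all. Accessibility was measured by DNase-seq, in which the enzyme DNase I cuts DNA that is not wrapped on nucleosomes or covered by protein. Both libraries came from whole bladder tissue of adult female B6CASTF1/J mice, the first-generation cross of C57BL/6J and CAST/EiJ, at 18 to 20 months of age. They form 1 group, biological replicates 1 and 2, with no treatment named in the labels. The 2 tissue samples are listed under 1 donor record and no label says whether they came from different animals, so the spread between them may be technical.

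TGF-beta family ligands are secreted proteins that bring together type II and type I receptors on the cell surface. The activated type I receptor phosphorylates Smad proteins, which enter the nucleus with Smad4 and act on target genes together with other transcription factors. Smad7 is induced by the pathway and blocks it at the receptor. In the bladder the pathway is known for its part in the growth of smooth muscle and connective tissue and in scarring of the wall. DNase I peaks show that DNA is accessible and not that a gene is transcribed. In whole tissue, fewer cells with an open site and a less open site in each cell cannot be told apart.

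Sequences of 7 accessible sites at these genes are shown first, since several of the results concern protein-protected stretches, called footprints, within them. A footprint is a short stretch that is cut less than its flanks, and most but not all deposited footprints of the loci overlapped a peak. Each sequence is the mm10 reference (GRCm38.p6) on the plus strand, 5′ to 3′, and capitals mark bases that lay inside deposited footprints of both libraries. The mice carry a C57BL/6J and a CAST/EiJ allele, and the reference holds the C57BL/6J one. The Tgfbr1 and Tgfb3 sites lie at promoters and were chosen after their values were seen, as the promoter sites of highest signal among the receptor genes and among the ligand genes. The others are the peaks outside promoters with the highest mean signal of both libraries in their loci. In replicate 1 alone, a downstream site of Tgfb1 was stronger than the printed one. The Tgfbr1 site is chr4:47352941-47353221, the part of its promoter peak upstream of every annotated start, with 115 of 281 bases in footprints of both libraries, in 8 stretches.
Tgfbr1 promoter: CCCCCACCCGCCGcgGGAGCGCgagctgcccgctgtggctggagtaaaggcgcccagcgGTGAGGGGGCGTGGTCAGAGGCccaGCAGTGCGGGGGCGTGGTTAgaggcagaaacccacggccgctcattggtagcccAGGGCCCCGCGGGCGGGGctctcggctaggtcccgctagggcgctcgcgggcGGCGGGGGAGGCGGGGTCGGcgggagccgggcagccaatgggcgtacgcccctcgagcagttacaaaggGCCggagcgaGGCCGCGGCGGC
The Tgfb3 site is chr12:86079441-86079660, upstream of the gene, with 47 of 220 bases in such footprints, in 2 stretches.
Tgfb3 promoter: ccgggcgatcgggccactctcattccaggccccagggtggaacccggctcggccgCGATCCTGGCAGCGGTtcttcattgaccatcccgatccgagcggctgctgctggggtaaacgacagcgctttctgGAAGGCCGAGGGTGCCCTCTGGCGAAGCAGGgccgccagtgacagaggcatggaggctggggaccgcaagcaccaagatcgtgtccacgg
The Tgfb1 site is chr7:25689241-25689500, intronic, with 27 of 260 bases in 3 stretches.
Tgfb1 intron: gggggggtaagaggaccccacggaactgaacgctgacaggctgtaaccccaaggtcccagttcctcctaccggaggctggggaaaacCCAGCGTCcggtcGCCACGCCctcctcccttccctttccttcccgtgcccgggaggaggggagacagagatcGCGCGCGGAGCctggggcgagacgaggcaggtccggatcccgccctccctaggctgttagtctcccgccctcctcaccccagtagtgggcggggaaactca
The Bmp2 site is chr2:133554821-133555040, intronic, with 29 of 220 bases in 2 stretches.
Bmp2 intron: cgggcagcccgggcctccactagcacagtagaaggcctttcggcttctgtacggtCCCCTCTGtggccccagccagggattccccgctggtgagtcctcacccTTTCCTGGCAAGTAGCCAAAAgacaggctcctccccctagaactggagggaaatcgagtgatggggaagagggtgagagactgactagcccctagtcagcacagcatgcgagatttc
The Bmp4 site is chr14:46387281-46387580, intronic in Bmp4, with 37 of 300 bases in 4 stretches.
Bmp4 intron: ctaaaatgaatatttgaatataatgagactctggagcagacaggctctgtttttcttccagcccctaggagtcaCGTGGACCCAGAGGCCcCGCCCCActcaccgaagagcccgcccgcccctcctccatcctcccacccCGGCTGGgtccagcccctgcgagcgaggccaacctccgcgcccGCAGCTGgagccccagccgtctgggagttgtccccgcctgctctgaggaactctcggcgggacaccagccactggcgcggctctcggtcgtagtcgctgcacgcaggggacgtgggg
The Bmp7 site is chr2:172863221-172863480, downstream of the gene, with 17 of 260 bases in 1 stretch.
Bmp7 downstream: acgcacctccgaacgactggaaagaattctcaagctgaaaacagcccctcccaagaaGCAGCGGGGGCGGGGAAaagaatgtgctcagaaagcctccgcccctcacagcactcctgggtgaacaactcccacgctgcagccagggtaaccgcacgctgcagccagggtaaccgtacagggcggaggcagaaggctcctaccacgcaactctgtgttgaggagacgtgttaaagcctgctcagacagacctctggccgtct
The Smad3 site is chr9:63716241-63716460, intronic, with 9 of 220 bases in 1 stretch.
Smad3 intron: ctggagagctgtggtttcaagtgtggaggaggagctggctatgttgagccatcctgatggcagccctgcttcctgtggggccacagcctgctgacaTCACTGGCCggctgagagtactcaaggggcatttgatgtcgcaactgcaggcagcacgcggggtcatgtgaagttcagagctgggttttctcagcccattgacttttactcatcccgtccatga
The promoter sequences of Tgfbr1 and Tgfb3 held more bases in shared footprints than the 5 printed sites outside promoters, which had 9 to 37. Sites outside promoters of Tgfb2, Tgfbr1 and Tgfbr2, not printed, had 0, 0 and 7 such bases. The 2 promoter sites were chosen for high signal and were stronger than the others. Promoter position and signal can therefore not be told apart here.

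The tissue was checked with marker genes. A promoter peak, meaning a peak within 1 kb of a start of a protein-coding transcript (TSS), was present at 8 of 8 urothelium marker genes, 6 of 6 fibroblast markers and 6 (replicate 1) or 5 (replicate 2) of 6 smooth muscle markers. Endothelial markers had one at 3 of 5 genes in both libraries, without Pecam1 and Vwf. Markers of macrophages had one at 1 of 4 genes in each library and T cell markers at 0 and 1 of 4. Liver and heart muscle markers had one at 1 of 4 genes each in both libraries. Peak signal was a whole multiple of 1 step in each library, so it was taken as a count on a scale of the library. Peaks at the 10 loci held 40 to 1184 such counts with a median of 134.5, for a counting error of 15.8% at the lowest, 8.62% at the median and 2.91% at the highest. These errors, and the counting SDs below, cover counting alone. They hold only if each step is 1 independent count, which is not stated.

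All 10 genes had a promoter peak in both libraries, while 64.1% of all protein-coding genes had one in replicate 1 and 66.4% in replicate 2. The count was 10 in both libraries with a window of 500 bp, in the shorter peak lists, and among equal numbers of the strongest peaks. Of all genes, 59.2% and 61.7% had a promoter peak in the shorter lists. As a set these promoter peaks were not strong. A gene's promoter signal here is that of its strongest promoter peak. The median of the 10 promoter signals was 2.65 against 3.51 over all genes with a promoter peak in both libraries, and 4 of the 10 lay above that median. Every gene's strongest promoter peak held a footprint in both libraries. Of all peaks, 76.9% held one in replicate 1 and 76.1% in replicate 2. The share among the strongest promoter peaks of all genes is not given here, so the count is not set apart from other promoters.

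**Figure D1:**
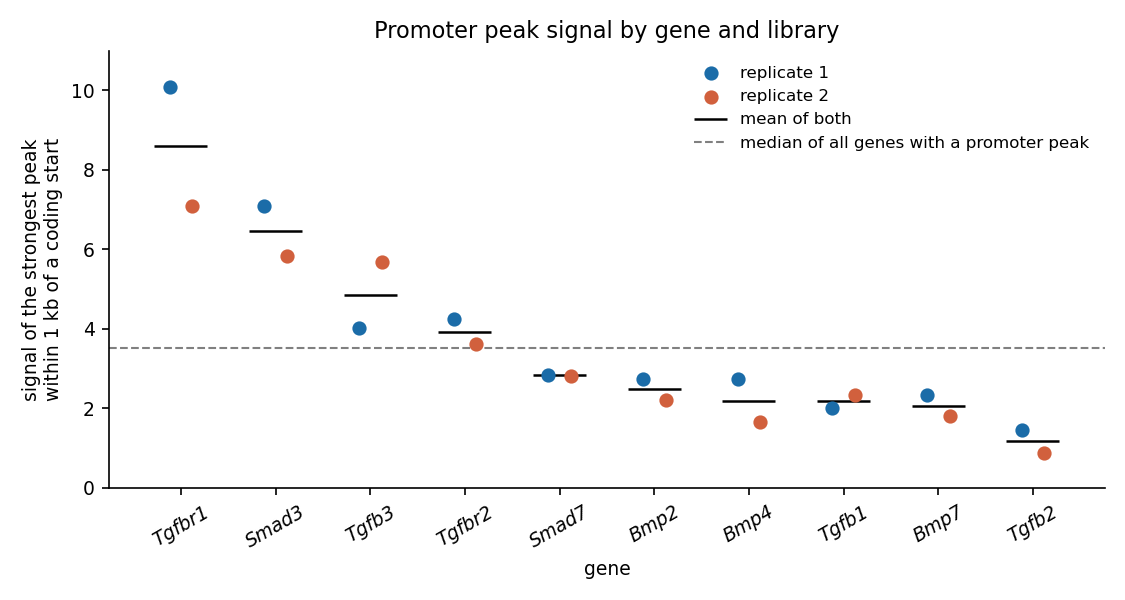
Signal of the strongest promoter peak of each gene in replicate 1 (blue) and replicate 2 (orange), with the mean of both as a bar and the median of all genes with a promoter peak (3.51) as a dashed line. Tgfbr1, Smad3, Tgfb3 and Tgfbr2 lie above the line and the other 6 genes below it.

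Among the ligands, Tgfb3 had the strongest promoter peak. Tgfb3 (chr12:86056745-86079041, minus strand), which encodes TGF-beta 3, a ligand of epithelia and connective tissue, had a promoter signal of 4.03 in replicate 1 and 5.68 in replicate 2, a mean of 4.85 ± 1.17 (SD, n = 2). This peak lay 510 bp upstream of the TSS, and a weaker one of 1.19 and 1.33 lay over the TSS itself. The Tgfb3 locus was otherwise sparse. It held 6 peaks in replicate 1 and 3 in replicate 2, and the 3 intronic peaks of replicate 1, between 0.614 and 0.767, had no counterpart in replicate 2. A further peak, of 2.71 and 2.53, lay at the promoter of the neighbouring gene Ift43, 3540 bp upstream of Tgfb3. Tgfb3 therefore had no peak outside promoters that was called in both libraries.

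Tgfb1 (chr7:25687002-25705077, plus strand) encodes TGF-beta 1, the most studied ligand in fibrosis. Its promoter signal was 2.00 and 2.34 in replicates 1 and 2, or 2.17 ± 0.239 (SD, n = 2). This was the strongest of 3 promoter peaks in replicate 1 and of 2 in replicate 2. The intronic site printed above, 2369 bp into the gene, was stronger at 3.51 and 3.16, with a mean of 3.33 ± 0.253. It lay 314 bp from the start of a Tgfb1 transcript annotated as subject to nonsense-mediated decay, which was not counted as a protein-coding start. A site 24929 bp from the TSS, downstream of the gene, had a signal of 3.85 and 2.64. The promoter values of the libraries lay below both values of the intronic site, so the order did not depend on the library. The strongest peaks of the Tgfb1 window belonged to another gene. They lay 6231 and 5951 bp upstream at the promoter of B9d2, with 4.56 and 5.36 in the first and 5.95 and 6.51 in the other.

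Tgfb2 (chr1:186622792-186705989, minus strand), which encodes TGF-beta 2, a ligand with roles in organ development, had the weakest promoter of the 10 genes. The signal there was 1.47 and 0.866, or 1.17 ± 0.425 (SD, n = 2). The values of Bmp7, next in order, were higher in both libraries without overlap. Tgfb2 nevertheless held many weak sites. The locus had 11 peaks in replicate 1 and 17 in replicate 2, all 11 of the first were paired, and its strongest pair outside the promoter reached 1.07 and 1.06, at 78178 bp from the TSS. Sites at 3468, 3228 and 2098 bp from the TSS formed a run of low signal between 0.341 and 0.636.

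Bmp2 (chr2:133552159-133562885, plus strand) encodes a BMP ligand known for bone formation. The promoter peak had a signal of 2.74 and 2.22, or 2.48 ± 0.367 (SD, n = 2), and the peak held 7 footprints in each library. The intronic site printed above, 2772 bp into the gene, had 1.77 and 2.12, or 1.95 ± 0.246. All values at this site were below those at the promoter. An upstream site 1828 bp before the TSS had 0.836 and 1.67. The promoter was higher in replicate 1, and both of these other sites were higher in replicate 2.

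Bmp4 (chr14:46383520-46390669, minus strand) encodes a BMP ligand of mesenchyme with roles in the development of the urinary tract. At its promoter the signal was 2.74 in replicate 1 and 1.64 in replicate 2, or 2.19 ± 0.773 (SD, n = 2), a wide spread for this set. The printed intronic site, 3238 bp from the TSS, was higher at 3.25 and 2.69, or 2.97 ± 0.398, although its replicate 2 value lay within the range of the promoter values. This site overlaps the annotated start of a Bmp4 transcript with a retained intron and 2 starts of the antisense gene Gm15222. It is therefore outside the promoters of protein-coding transcripts but at starts of other transcripts. A site 7812 bp upstream had 1.94 and 1.56. Bmp4 had 6 distinct peaks, of which 3 were paired.

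Bmp7 (chr2:172868012-172940321, minus strand) encodes a BMP ligand known for its role in the kidney and urinary tract. The Bmp7 promoter had a signal of 2.33 and 1.80, or 2.07 ± 0.371 (SD, n = 2). This was the strongest of 2 promoter peaks in replicate 1 and of 4 in replicate 2. The strongest site of the locus lay downstream of the gene, 76970 bp from the TSS, with 2.84 and 2.17, or 2.50 ± 0.477, and these values overlapped those of the promoter. It lay 861 bp from the annotated start of the miRNA gene Gm22773, which was not counted as a protein-coding start. Another downstream site at 78540 bp had 1.94 and 1.68. These sites flank a weaker pair of 0.588 and 0.654, so the end of Bmp7 carried a cluster of 3 sites called in both libraries. In the gene itself, the sites at 12430, 10120 and 1510 bp from the TSS had mean signals of 1.73, 1.56 and 1.53.

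**Figure D2:**
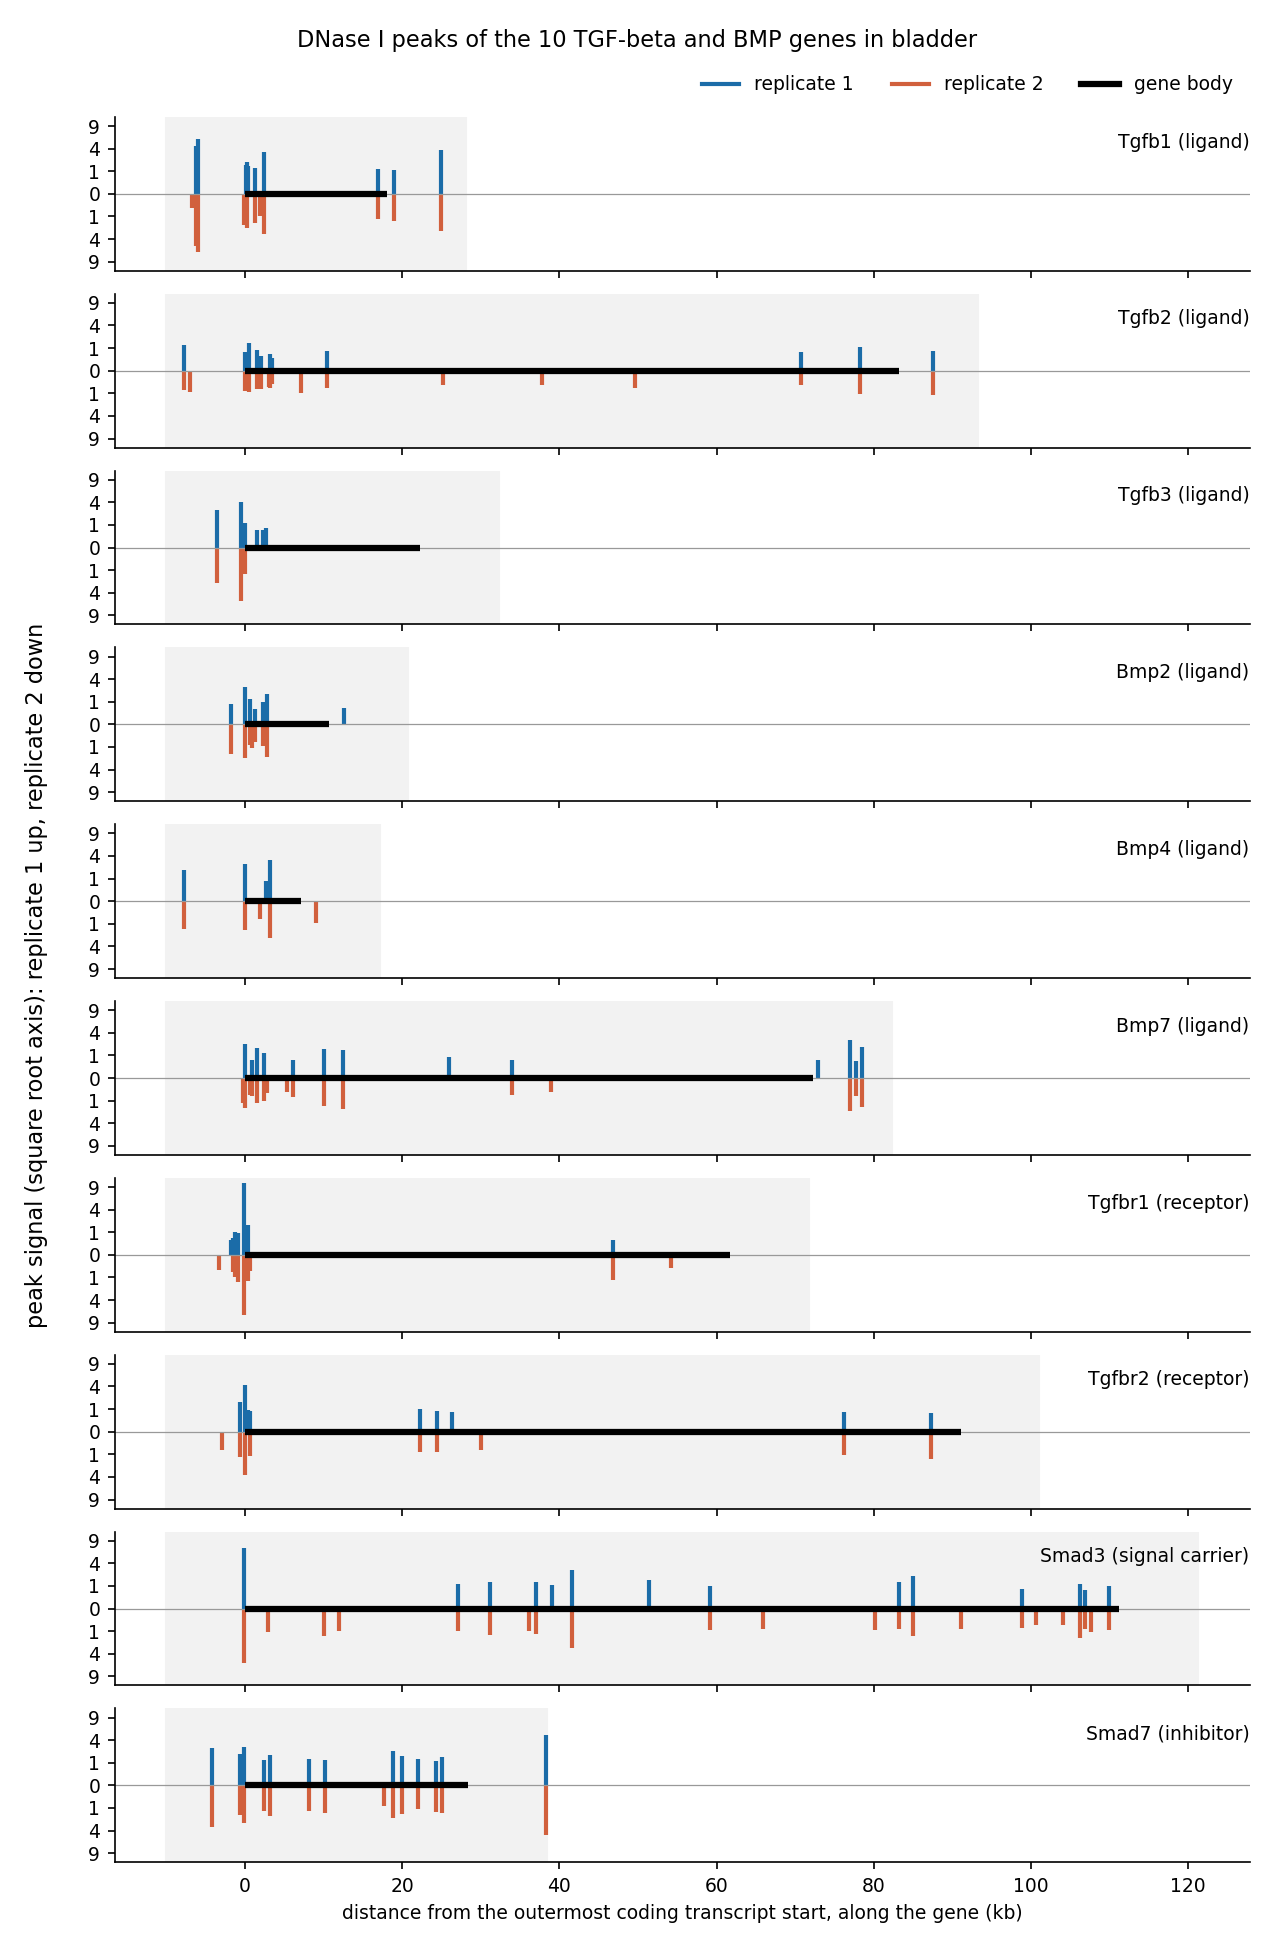
Peaks of the 10 loci by distance from the outermost TSS along the gene (kb), with deposited signal on a square root axis upward for replicate 1 and downward for replicate 2. Black bars are gene bodies and grey is the locus of 10 kb on either side. The Tgfbr1 promoter stands highest at 10.1 and 7.09, Smad3 carries sites along its whole body, and the intronic peaks of Tgfb3 appear on the side of replicate 1 alone.

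At both receptor genes the promoter peak was far stronger than any other peak of the locus. Tgfbr1 (chr4:47353222-47414931, plus strand) encodes the type I receptor, the kinase that phosphorylates Smad3. Its promoter signal was the highest of the 10 genes at 10.1 and 7.09, or 8.59 ± 2.13 (SD, n = 2), which placed it at the 93.3rd percentile of all genes with a promoter peak in both libraries. The peak held 9 footprints in replicate 1 and 5 in replicate 2. Smaller peaks surrounded it, and beyond the promoter the body of Tgfbr1 held 1 peak in replicate 1 and 2 in replicate 2. Its strongest pair outside promoters, 1301 bp upstream, had 1.04 and 0.990, and no footprint in either library.

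Tgfbr2 (chr9:116084293-116175360, minus strand) encodes the type II receptor, which binds TGF-beta and activates the type I receptor. The Tgfbr2 promoter had a signal of 4.24 and 3.62, or 3.93 ± 0.435 (SD, n = 2), with 5 and 7 footprints. Outside promoters the signal was low. The strongest pair lay in an exon, 87249 bp from the TSS, with 0.682 and 1.42, and a site 22315 bp into the gene (chr9:116152929-116153160) had 1.05 and 0.787. Tgfbr2 had the lowest mean density of peaks of the 10 genes, with 0.810 per 10 kb in each library.

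Smad3 (chr9:63646767-63757994, minus strand) encodes the Smad protein that carries the TGF-beta signal to the nucleus. The Smad3 promoter had a signal of 7.10 and 5.84, or 6.47 ± 0.892 (SD, n = 2). The Smad3 locus held more distinct peaks than any other of the 10, 24 in all and 20 of them intronic. Of the 24, 12 were paired, 2 were called in replicate 1 alone and 10 in replicate 2 alone. The printed intronic site, 41643 bp from the TSS, was the strongest outside the promoter with 2.88 and 3.08, or 2.98 ± 0.137. The next, at 85043 bp, had 2.02 and 1.51. The values of Smad3 and Tgfbr1 promoters overlapped between libraries, and those of Smad3 lay above those of Tgfb3 in both.

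Smad7 (chr18:75367529-75395935, plus strand) encodes the inhibitor that is itself a target of the pathway. Smad7 had a promoter signal of 2.84 and 2.82, or 2.83 ± 0.0146 (SD, n = 2), below the median of all genes. This was the strongest of 4 promoter peaks in replicate 1 and of 5 in replicate 2. The strongest site of the Smad7 locus lay downstream of the gene, 38302 bp from the TSS, with 4.95 and 4.89, or 4.92 ± 0.0477. Both of its values exceeded both promoter values. An upstream site, 4138 bp before the TSS, had 2.75 and 3.42, and 7 intronic pairs had mean signals of 1.23 to 2.19. Of the 15 distinct peaks, 13 were paired and 2 were called in replicate 2 alone. Smad7 was the locus with the highest peak density, 2.69 and 3.10 peaks per 10 kb in the libraries, at the 97.6th percentile of all genes.

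In the order of promoter signal, the ranges of the 2 libraries overlapped between Tgfbr1 and Smad3, and between Tgfb3 and Tgfbr2. They also overlapped from Bmp2 through Bmp4 and Tgfb1 to Bmp7, each with the next. They did not overlap between Smad3 and Tgfb3, Tgfbr2 and Smad7, Smad7 and Bmp2, or Bmp7 and Tgfb2. These ranges use the signal as deposited, with no scaling between libraries. The gap between Smad7 and Bmp2 was narrow, 2.82 in replicate 2 against 2.74 in replicate 1, or 319 against 321 counts. That order is therefore not settled. The gap between Smad3 and Tgfb3 was also narrow, with 5.84 and 5.68 in replicate 2. In 4 of the 10 genes, Tgfb1, Bmp4, Bmp7 and Smad7, the strongest locus peak more than 1 kb from every protein-coding TSS exceeded the promoter peak in both libraries. Among the 13756 genes with a promoter peak in both libraries this was so for 14.7%. The ratio of the mean signals was 1.74 for Smad7, 1.61 for Tgfb1, 1.35 for Bmp4 and 1.21 for Bmp7. For Tgfb1 the strongest such peak was the downstream site in replicate 1 and the intronic site in replicate 2, and the ratio for the intronic site in both was 1.53. For Smad7 and Tgfb1 both values outside promoters were above both promoter values, and for Bmp4 and Bmp7 the values overlapped. In Tgfb3, Tgfbr1 and Tgfbr2 the ratio was 0.0791, 0.135 and 0.314. Tgfb3 had no such peak in replicate 2, and 0 was entered there. All these comparisons take the single strongest peak on either side. Summed promoter signal was 5.15 and 4.295 at Tgfb1, 2.98 and 4.17 at Bmp7, and 7.89 and 8.88 at Smad7. In both libraries these sums exceeded the strongest peak outside promoters. Bmp4 had 1 promoter peak in each library.

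The 10 loci held more peaks per length than the typical gene. Their median was 1.47 peaks per 10 kb against 0.673 over all protein-coding genes, and every one of the 10 lay above that median. Outside promoters the median was 1.25 against 0.283 peaks per 10 kb, again with all 10 above. Summed signal per 10 kb had a median of 2.17 against 1.02, and Tgfb2, with 0.989 ± 0.189 (SD, n = 2), was close to the level of all genes. With each pair and each unpaired peak counted once, there were 128 peaks, some of which overlapped. Merging those left 122. Of the 128, 68 lay in introns, 32 at promoters of the 10 genes, 10 upstream, 10 downstream, 4 in exons and 4 at promoters of B9d2 or Ift43. Of the 92 peaks outside promoters, 55 were called in both libraries, and 13 lay within 1 kb of the start of a transcript that was not counted as protein-coding. Individual peaks were also stronger than is typical, with a median signal of 1.22 and 1.07 against 0.819 and 0.760 over all peaks. In each library 10 of them were in its top 10% by signal, 10 of 94 and 10 of 114, close to the share of all peaks.

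Smad3, with 14 peaks in replicate 1 and 22 in replicate 2, and Tgfb2, with 11 and 17, had the largest differences in number. Of the 10 genes, 7 had more peaks in replicate 2, 2 had the same number and Tgfb3 had fewer. The whole list was also longer in replicate 2, with 112174 peaks against 84591. Summed over the 10 loci the signal was 157.8 and 165.5, a mean of 161.6 ± 5.50 (SD, n = 2). Over all peaks it was 120374 and 150175, so the 10 loci held a smaller share of it in replicate 2. Of the peaks of replicate 1 in these loci, 88.3% overlapped a peak of replicate 2, against 84.7% over all peaks. The share in the other direction was 72.8% of the replicate 2 peaks, against 64.1%. Peaks without overlap numbered 11 in replicate 1 and 31 in replicate 2. In some of these the other library reached an FDR (false discovery rate of the cut rate) under 0.05 at that place. This is the level that every peak of the longer lists reached. It was so for 3 of the 11, against 20.9% of all such peaks, and 6 of the 31, against 11.8%. At the remaining places in the 10 loci the longer list of the other library gives no signal, and how much was cut there is unknown.

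The FDR at which peaks were listed differed between loci at like signal. In replicate 1, the 3 peaks of Tgfb1 with a signal of 1 to 1.5 had lowest FDRs of 0.0152 to 0.0194, while the 3 of Tgfb2 in the same range had 1.91e-07 or less. In replicate 2 the 2 peaks of Tgfb1 in that range had 0.000419 and 0.00231, and the 2 of Tgfb2 had 1.61e-10 or less. The weakest listed peak of replicate 1 had a signal of 1.15 at Tgfb1, 1.19 at Smad7 and 0.341 at Tgfb2. In replicate 2 these were 0.415, 0.866 and 0.371. The peak of 0.415 in the Tgfb1 window lay at the promoter of B9d2. Apart from peaks at B9d2, the weakest of that window in replicate 2 had 0.9455. In replicate 2 the Smad7 peak of 0.866 had a lowest FDR of 0.0393, while a Tgfb2 peak of 0.9985 had 2.90e-09. In both libraries, the number and density of listed peaks are therefore not on 1 scale of signal across these loci.

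Paired peaks were on the whole slightly lower in replicate 2 relative to the rest of the genome. At the 80 pairs of the 10 loci the log2 ratio of signal, replicate 2 over replicate 1, had a median of -0.05, and over all 70427 pairs a median of 0.14. With the median of all pairs set to 0, the median of the 80 was -0.20, with an SD over pairs of 0.42, and 55 of the 80 lay below 0. The gene medians were below 0 for 8 of the 10 genes. Bmp4 had the lowest, -0.45, followed by Bmp7 with -0.36, and Tgfb1 and Tgfb3 had 0.03. At promoters the median was -0.35 over 22 pairs, where all promoter pairs had -0.07, and elsewhere -0.19 over 58 pairs, where all such pairs had 0.06. When all pairs were split into 3 equal classes by mean signal, the medians of the 10 genes were -0.09, -0.19 and -0.30 from the weakest to the strongest class, and those of all pairs were -0.05, 0.05 and 0.01. The 10 genes are few and their peaks are not independent, so no test was made of this difference. It is small beside the spread of single peaks.

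**Figure D3:**
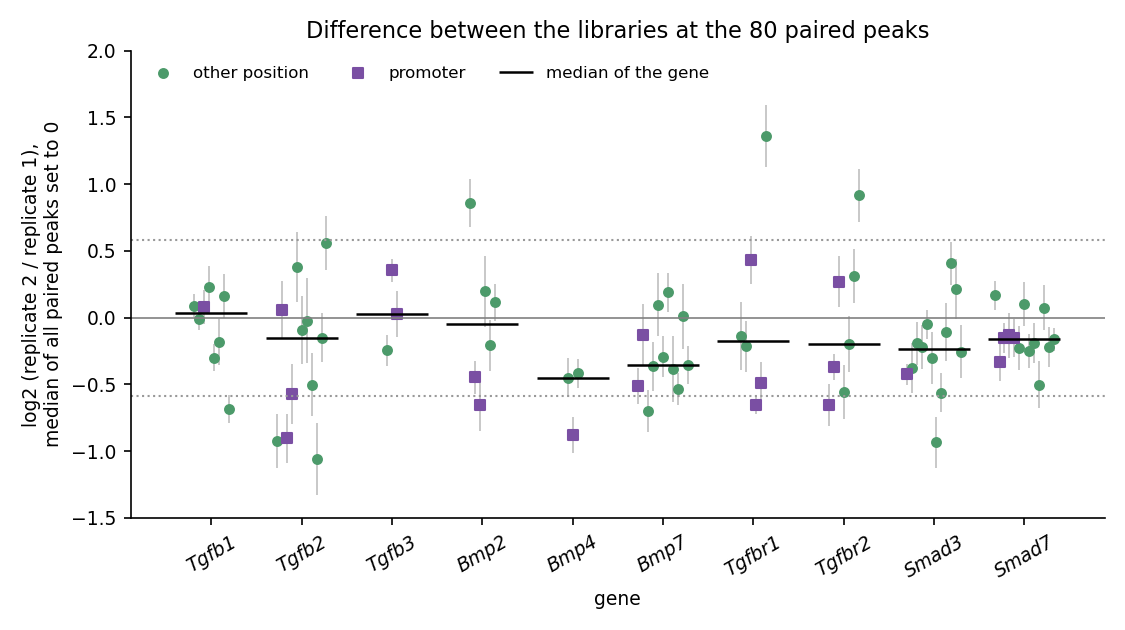
Log2 ratio of replicate 2 over replicate 1 at each of the 80 paired peaks by gene, with the median of all pairs in the genome at 0, grey bars of 1 counting SD, and dotted lines at 1.5-fold. Squares are promoter peaks and circles other positions, and black bars are gene medians. Most points lie between the dotted lines, 3 lie above and 10 below, and the Smad7 points stay within -0.50 and 0.17.

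After this centring, 3 of the 80 pairs were over 1.5-fold higher in replicate 2, against 15.2% of all pairs in the genome, and 10 were over 1.5-fold lower, against 7.30% of all pairs. In the signal as deposited, without centring, 4 were higher and 5 lower, against 20.9% and 3.45% of all pairs. The number of lower pairs thus depends on the centring, while that of higher pairs changed little. The highest was an intronic site of Tgfbr1, 46809 bp from the TSS (chr4:47399961-47400100), with 0.452 in replicate 1 and 1.28 in replicate 2, a centred log2 ratio of 1.36. The exonic site of Tgfbr2 and the upstream site of Bmp2 described above followed with 0.92 and 0.86. The lowest were an intronic site of Tgfb2 at 70677 bp with 0.716 and 0.380, an intronic site of Smad3 at 83168 bp with 1.41 and 0.813, and a site 7792 bp upstream of Tgfb2 with 1.25 and 0.725. Their centred log2 ratios were -1.06, -0.94 and -0.92. The strongest promoter peaks of Tgfb2, Bmp4 and Tgfbr1 were also over 1.5-fold lower after centring, with centred log2 ratios of -0.90, -0.88 and -0.65. As deposited the log2 ratios were -0.76, -0.74 and -0.51, and that of Tgfbr1 was then within 1.5-fold. In Smad7 and Tgfb3 no pair passed 1.5-fold after centring. Of the 80 pairs, 36 were over 2 counting SDs from the centre, or 45.0%, against 44.3% of all pairs, and 29 of these 36 were lower in replicate 2.

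Footprints were found at the 10 genes about as often as elsewhere. Of the member peaks, 78.7% held a footprint in replicate 1 and 78.1% in replicate 2, against 76.9% and 76.1% of all peaks. The loci held 220 and 259 footprints, of which 196 and 236 overlapped a peak. Of the 220, 107 (48.6%) overlapped a footprint of replicate 2, against 55.1% of all footprints, and of the 259, 101 (39.0%) overlapped one of replicate 1, against 40.7%. Smad3 had the most footprints in peaks, 35 and 50. Tgfbr1 had 10 in each library, and Tgfb2 had 16 and 31. Of those of Tgfbr1, 9 in replicate 1 and 5 in replicate 2 lay in its promoter peak.

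Short sequence patterns known from transcription factors were counted on both strands in windows of 200 bp at the centres of the peaks, 122 windows at the 10 genes and 122998 in all. The palindrome bound by Smad3 and Smad4, GTCTAGAC, occurred in 1 of the 122 windows, at the Smad7 promoter, and in 0.201% of all windows. The GC-rich Smad pattern GGCGCC occurred in 9 of 122 windows, against 6.52% of all. The pattern of AP-1, a partner of Smad proteins at target genes, TGANTCA, was present in 20 of the 91 windows outside promoters, against 17.1% of all such windows, and 7 of its 22 windows were at Smad3. The TEAD pattern CATTCC had 16 of 91 against 13.5%, and the E-box CACGTG 13 of 122 against 4.71%, 4 of them at Tgfb2. The KLF and SP pattern GGGCGGG was in 11 of the 31 promoter windows, against 29.4% of all promoter windows, and in 9 of the 91 others, against 4.75%. CTCF and CArG box patterns, searched by their consensus, matched in 0 of the 122 windows, against 4.88% and 0.987% of all. The windows of the 10 genes had a median GC content of 55.0%, against 52.0% for all.

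Few pattern matches lay wholly inside footprints of both libraries. Over the full width of the peaks, 6 of 42 KLF and SP matches did, against 21.2% of all such matches in the genome. Those 6 were at the promoters of Tgfbr1, Bmp4 and B9d2 and at the downstream site of Bmp7. In the printed Tgfbr1 promoter the match spans bases 149 to 155, and in the Bmp7 site bases 65 to 71, counted from 1 at the left. The GC-rich Smad pattern had 0 of 15 matches inside footprints of both libraries, against 13.9% of all. For AP-1 it was 1 of 28, in an intron of Smad7, against 0.945%. The palindrome of nuclear factor I (NFI), TGGC and GCCA with 5 bases between them, was searched after it was seen in the printed Bmp2 site, at bases 109 to 121. It had 5 matches in the peaks of the 10 loci, and 3 lay wholly inside footprints of both libraries, against 17.1% of 2789 matches in the genome. The NFI half-site TTGGCA had 1 of 22 matches inside such footprints, against 5.62% of all, and was in 17 of 122 windows against 16.2% of all. The 3 palindromes were at the printed intronic site of Bmp2, an intronic site of Smad3 (chr9:63651701-63651920, signal 1.13 and 1.66) and the strong downstream site of Smad7. The Bmp2 match prompted the search, and without it 2 of 4 matches lay inside such footprints. A pattern match is a description of letters, not of a bound protein.

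Other genes of the pathway were taken from a list of 86 grouped by role, which was chosen with earlier results of these data known. A promoter peak was present at 72 of the 86 in replicate 1 and 74 in replicate 2, and at 71 in both. Over all protein-coding genes the share was 64.1% in replicate 1 and 66.4% in replicate 2. By role, the share was lowest for the other ligands, with 11 and 12 of 18, close to that of all genes. The secreted antagonists followed with 9 and 10 of 13. Receptors and co-receptors had 12 and 13 of 15. It was complete for the signal-carrying Smads (5 of 5), for the genes of latency and activation of TGF-beta (11 of 11) and for the target genes (13 of 13). The inhibitors that act inside the cell or at its membrane had 11 and 10 of 11.

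Among the other ligands, Bmp6, a BMP with a role in iron balance, had the highest promoter signal with 2.77 and 2.85, followed by Inhba, which encodes an activin subunit, with 2.05 and 2.30. Tgfb3 was above both in each library. Bmp5, Gdf10, Gdf15 and Gdf2 were among the 6 ligands without a promoter peak in either library. Of the receptors, Rgmb, a BMP co-receptor, led with 10.5 and 9.69, followed by Acvr2a, an activin receptor, with 3.78 and 4.75, and Amhr2 and Hfe2 had none. Of the signal-carrying Smads, Smad4 had 7.25 and 6.05 and Smad1 6.36 and 6.50, against 7.10 and 5.84 for Smad3.

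The promoter signal of the inhibitors in the cell varied widely. Ski, a co-repressor of Smad proteins, had 10.09 and 10.04, and Smad6, the relative of Smad7 that acts on BMP signals, had 8.16 and 7.85. Both stood above Smad7 itself in each library. At the low end, Smurf2, a ubiquitin ligase, had 2.93 and 2.38, and Tgif2, a co-repressor, had 0.640 in replicate 1 and no peak in replicate 2. Of the secreted antagonists, Twsg1 had 5.32 and 5.61 and Nbl1 1.54 and 1.56, and Grem1, Sost and Sostdc1 had none. Among the genes of latency and activation, Itgav, an integrin subunit that activates TGF-beta, had 6.64 and 5.38, and Ltbp4, which binds latent TGF-beta in the matrix, had 3.97 and 4.59. The target genes Klf10 and Id2 had 9.94 and 8.38, and 8.79 and 8.32, and the loci of the 13 targets had a median of 2.29 peaks per 10 kb.

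**Figure D4:**
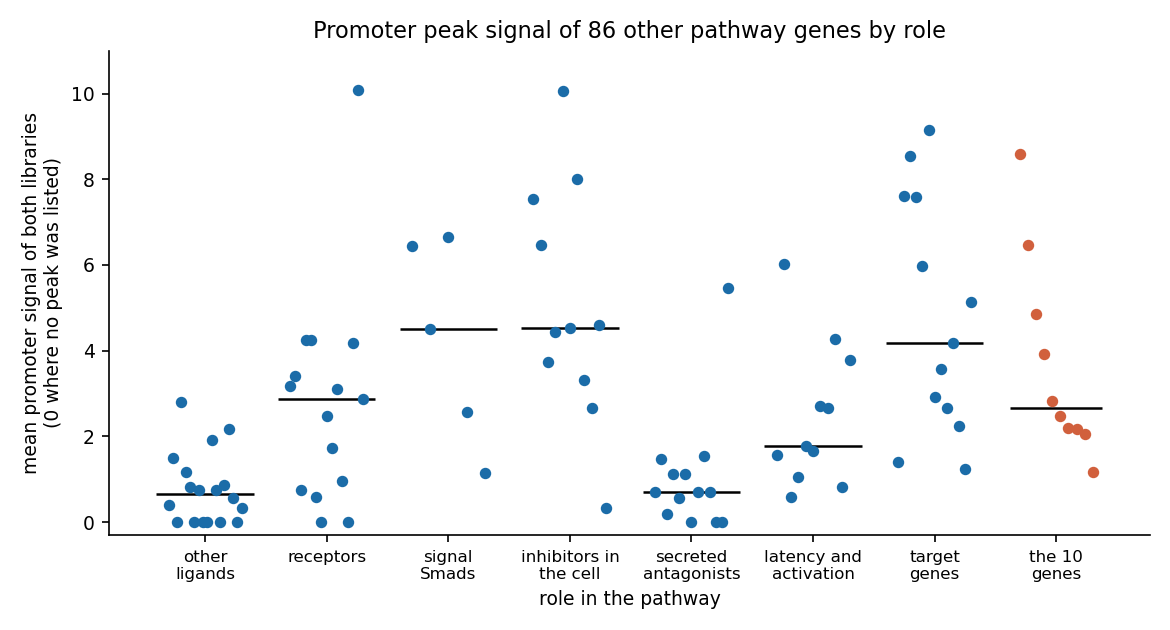
Mean promoter signal of both libraries for the 86 other pathway genes by role (blue) and for the 10 genes (orange), with 0 where no peak was listed and bars at group medians. Medians were 0.653 for other ligands, 2.87 for receptors, 4.50 for signal-carrying Smads, 4.54 for inhibitors in the cell, 0.699 for secreted antagonists, 1.77 for latency and activation, 4.17 for targets and 2.65 for the 10 genes.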

How the data were processed

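Urinary bladder was profiled by DNase-seq in 2 libraries of 1 group. The authors deposited per library, on mm10 per the labels, a longer and a shorter peak list, footprints, and stretches of significant cut rate. Which aligner and peak caller were used is not given in the sources used here. The deposited peak signal (column 7) was a whole multiple of 1 step per library, 0.00853 and 0.00884, for 100% of peaks within a tolerance of 0.02. It was taken as a count times a factor whose meaning is not stated. Total depth is unknown. The FDR that the authors deposited is on the p-value scale, under 0.05 at each peak of the longer and under 0.001 at each of the shorter list, and the deposited footprint value, also on the p-value scale, was 0.01 in every row and was not used.

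The main list was the longer one. Positions came from GENCODE M21 and sequence from the GRCm38.p6 assembly. Peaks overlapping by 1 bp were shared, and signal was compared in mutually best overlapping pairs, centred on the median of all pairs. With 1 group of 2 libraries there was no test, and values are given per library or as mean ± SD over the 2. The interval functions were tested on simulated data. Python 3.11.15, numpy 2.4.6 and pandas 2.3.3 were used, with matplotlib 3.10.9 for figures.

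All 10 genes were named. Of each pathway role the 2 genes of highest mean promoter signal were named, with up to 4 that had no promoter peak, in alphabetical order. Single peaks named by rule were the strongest at and away from the promoter of each gene and the paired peaks with the 3 highest and 3 lowest ratios. Other peaks, Smurf2, Tgif2 and the NFI palindrome were chosen after their values were seen. The 10 genes were chosen by name and not by their values. They and the lists were nevertheless chosen with earlier results of these data known. Sequences from chromosome 18 are not printed. Alternatives covered promoter and locus width, overlap, peak list, scaling and each library alone. Centring within 3 classes of signal and counts of calls without centring were added after seeing the data.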

Additional observations from a re-analysis of the deposited data

How the results depend on the processing

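The number of the 10 genes with a promoter peak was 10 under every setting tried, and leaving out either library gave 10 to 10. The mean number of peaks in the 10 loci, 104, ranged from 94 to 114 when either library was left out, and was 78.5 in gene bodies alone, 150.5 with 50 kb on either side and 71 in the shorter lists, each within 1.5 times. The mean summed signal, 161.6, ranged from 157.8 to 165.5 without either library, and moved by more than the spread between libraries to 109.4 in gene bodies alone, 239.5 with 50 kb on either side, 135.3 in the shorter lists and 147.6 without peaks at promoters of other genes. The mean share of peaks shared, 80.6%, became 67.9% when the overlap had to cover 50% of each peak. The median centred log2 ratio, -0.20, was -0.37 with both libraries scaled to equal summed peak signal, -0.05 without centring and -0.24 centred within 3 classes of signal, and stayed below 0 in these and the other settings tried. Without centring, pairs over 1.5-fold lower in replicate 2 were 5 in place of 10, and pairs higher were 4 in place of 3, an alternative added after seeing the data. Footprints in peaks, 216 on average, ranged from 196 to 236 without either library and were 135.5 in gene bodies alone. Pathway genes with a promoter peak, 73 on average, ranged from 72 to 74 without either library and were 62 in the shorter lists. Wider or narrower windows hold more or less DNA by construction. A stricter overlap can only lower the share of shared peaks, and leaving out peaks can only lower a summed signal. Leaving out the centring, or scaling to equal sums, shifts every log2 ratio by the same amount. The cause of the other moves was not tested. No paired analysis was possible because the series holds 1 group. The number of counts per peak limits single ratios, and total depth is unknown.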

Other observations

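The windows of 50 kb on either side held 16 and 22 peaks at Tgfb1, with 6 other protein-coding genes in the window, and 9 and 9 at Bmp2, with none. At Bmp4 the wider window held 4 and 6 peaks, against 4 and 5 with 10 kb, so little accessible DNA was listed between 10 and 50 kb of that gene. At Tgfb3 the wider window held 7 and 10 peaks, so that replicate 2 had more peaks there while it had fewer within 10 kb.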
